A study of Gallus gallus with 16 samples.

Results

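The comparison set sorted chick (Gallus gallus) vagal neural crest in which SOX10 had been targeted with CRISPR/Cas9 against the same cells in which TFAP2B had been targeted. It rested on the 3 sox10 and 3 tfap2b libraries, 6 of the 16 RNA-seq libraries of the series, taken by their titles. Embryos were wild-type, from fertilised eggs, and were taken at Hamburger and Hamilton stage 18. Every group, the control included, carried a CAG-driven plasmid for Cas9 joined to the fluorescent protein Citrine by a 2A peptide, and Citrine-positive cells were sorted by flow cytometry. The sox10 group also carried 2 U6 guide plasmids (sox10_g1 and sox10_g2) and the tfap2b group 2 others (tfap2b_g1 and tfap2b_g2). Another 4 groups were read beside them: the Cas9 control without guides (2 libraries), sox3 with 2 guide plasmids (2 libraries), msx1 with 1 (3 libraries), and the double group with 3 (tfap2b_g1, tfap2b_g2 and sox10_g1; 3 libraries). The labels do not tell whether replicate libraries stem from different embryos or electroporations. The p-values below thus cover the spread among these libraries alone, and that spread may be technical. One protocol note describes RNA from dissected parts of dorsal neural tubes, while the sample labels give dissociation and sorting.

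Neural crest cells leave the dorsal neural tube, migrate and form neurons, glia, pigment cells and mesenchyme, and the vagal part supplies most of the enteric nervous system. SOX10 is an HMG-box transcription factor that keeps migrating crest cells multipotent and is later needed for glia, melanocytes and enteric neurons. TFAP2B is an AP-2 family factor that acts with its paralogue TFAP2A in the crest and in its sympathetic and craniofacial derivatives. Both were treated by the study as putative core factors of the crest. The comparison of the 2 groups asks which transcripts part the targeting of the first from that of the second.

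Total counts were 9112556 to 10263454 in the sox10 libraries and 11151747 to 16951686 in the tfap2b libraries. At an equal depth of 5721022 counts, 12723 ± 130 genes had a count in the sox10 group and 13577 ± 317 in the tfap2b group (SD, n = 3 each), and the groups did not overlap. The share of counts in the top 100 genes was 19.5% ± 0.387 for sox10 and 17.1% ± 1.01 for tfap2b (SD, n = 3 each). The part of these differences in the results below was not tested beyond thinning to equal depth. The replicates of the sox10 group were no closer to each other than to the tfap2b libraries: Pearson's r of log2 CPM across the 14081 genes tested was 0.868 to 0.892 within sox10, 0.878 to 0.914 across the groups and 0.922 to 0.948 within tfap2b. These are correlations across genes, which are not independent replicates. On the first principal component of all 16 libraries tfap2b replicate 2 (score 97.4) lay nearer to the sox10 libraries (104 to 132) than to the other tfap2b libraries (36.5 and 58.4). On the second component sox10 replicate 1 stood apart (-133, against -2.42 and -36.2). The gene IDs of the table are not paired with names in the files or the reference (0 of 24881 matched), so the targeted genes and the markers of neural crest were not analysed here, and genes are given by ID or position on galGal5.

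Between the 2 targetings, 362 of 14081 genes passed the threshold (adjusted p under 0.05 in edgeR's quasi-likelihood test on all 16 libraries, Benjamini-Hochberg over all genes tested), or 2.57%. Of these, 270 (1.92%) were lower in sox10 than in tfap2b and 92 (0.653%) were higher. A higher level in one bulk group can mean more cells of a type or more RNA per cell, which cannot be told apart here. The lower genes were also further apart. Their median log2 difference was -2.75, and 251 of the 270 differed at least 2-fold, 169 at least 4-fold and 127 at least 8-fold. Among the 92 higher genes the median was 1.20, with 68 at least 2-fold apart, 15 at least 4-fold and 4 at least 8-fold. The 2 sets also differed in level. The median mean level was 1.94 CPM in sox10 and 12.5 in tfap2b for the lower genes, and 96.3 and 35.2 for the higher. Over the sox10 group 30 of the 270 had no count and 53 had 1 to 3, and for these the fitted fold depends on the prior count. The part of level in the size of the folds was not tested. The sox10 and tfap2b libraries did not overlap for 261 of the 270 and 90 of the 92; over all genes tested 8.69% lay lower in sox10 without overlap and 6.26% higher, and since the same values made the calls this is a description. Scaling by library totals alone, which moves the median of all genes to -0.17, gave 407 lower and 60 higher genes. The lower genes were not the majority in every fit: without tfap2b replicate 2 there were 625 lower and 679 higher, and limma-voom with quality weights gave 7 lower and 27 higher.

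**Figure D1:**
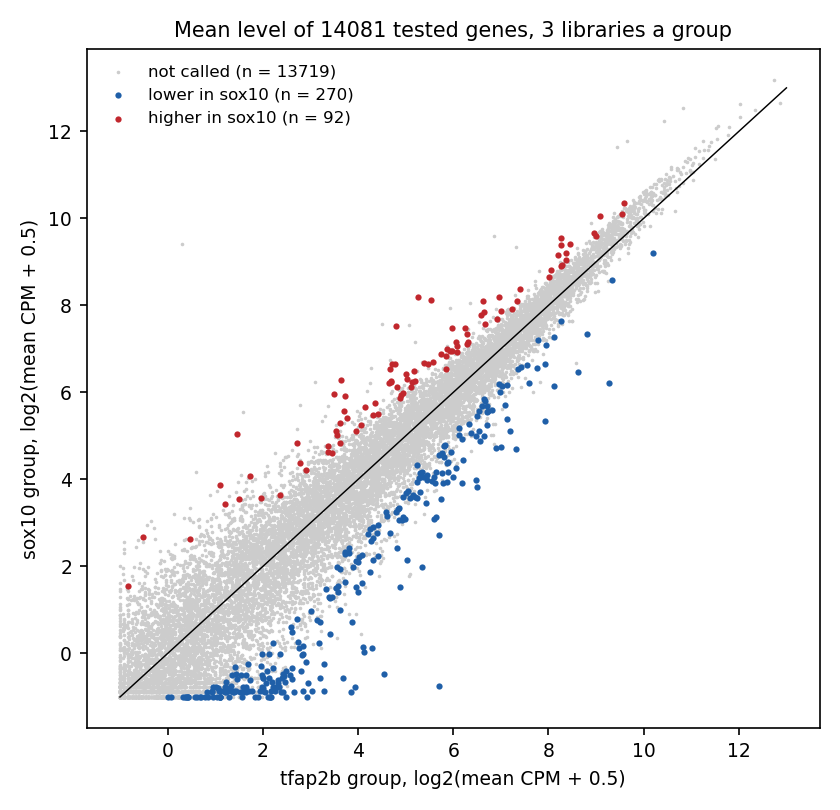
Mean level of each of the 14081 tested genes in the tfap2b group (horizontal axis) and the sox10 group (vertical axis), as log2 of mean CPM (counts scaled to library size, with TMM factors) plus 0.5, 3 libraries a group. The 270 genes lower in sox10 (blue) reach down to the floor of the vertical axis, the 92 higher genes (red) lie above the diagonal, and genes not called are grey.

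These calls rested on a spread estimated over all groups. The median SD of a gene's log2 CPM within a group was 0.683 in sox10, 0.515 in tfap2b and 0.402 in the double group, but 0.140 in the control and 0.148 in sox3. With the sox10 and tfap2b libraries fitted alone, the common biological coefficient of variation rose from 0.478 to 0.583 and edgeR called 0 genes of 11168. This fit tested only 311 of the 362 genes, as the rest did not pass its expression filter. The smallest adjusted p was then 0.0524, and 861 genes (7.71%) had an unadjusted p under 0.05. DESeq2 called 181 genes on the same 6 libraries and 1288 on all 16. With the double libraries added to the 6, edgeR again called 0 genes (1465 at an unadjusted p under 0.05). With the close pairs of control, sox3 and msx1 libraries each summed to 1 sample it called 8, all lower in sox10. Single libraries also moved the count: it was 112 without tfap2b replicate 1, 158 without tfap2b replicate 3, 1304 without tfap2b replicate 2 and 922 without sox10 replicate 2. Of the 362 genes, 86 kept their call in all 6 fits that left out 1 sox10 or tfap2b library, 75 of them lower and 11 higher in sox10.

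**Figure D2:**
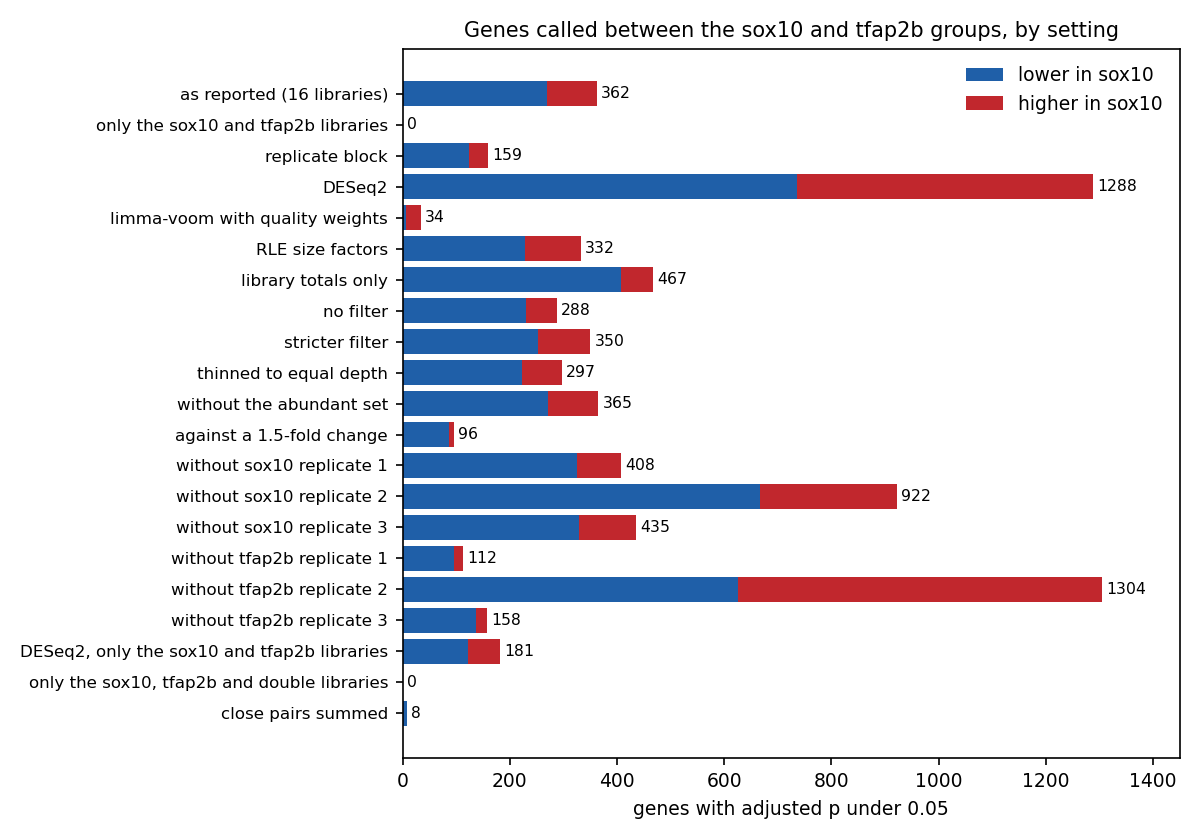
Number of genes called between the sox10 and tfap2b groups under each setting, as stacked bars from 0 (blue, lower in sox10; red, higher in sox10), with the total at the end of each bar. The totals run from 0, with only the 6 libraries of the comparison in the fit, to 1304, without tfap2b replicate 2.

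As a set, the 270 genes lower in the sox10 group were low there and higher in every other group. Their median level was 1.10, 1.62 and 1.41 CPM in sox10 replicates 1 to 3, and 12.4, 10.7 and 12.3 CPM in tfap2b replicates 1 to 3. These levels chose the genes and are given as a description. In the other groups, which entered the choice through the expression filter and the shared spread but not through the difference itself, the medians were 28.5 and 28.4 CPM in the control, 19.6 and 20.6 in sox3, 18.1 to 22.1 in msx1 and 9.96 to 11.4 in the double group. The double libraries, which carried 1 of the 2 sox10 guides, thus lay at the level of the tfap2b libraries and not of the sox10 libraries. Together the 270 genes took 0.351% to 0.440% of counts in the sox10 libraries, 0.859% to 1.32% in tfap2b, 0.925% to 0.979% in the double group and 2.03% and 2.07% in the control. In the sox10 group 30 of the 270 had no count in any library and a further 53 had 1 to 3 counts over the 3 libraries. None of the 270 was at 0 in all tfap2b libraries. Over all genes tested, 445 were at 0 in all sox10 libraries and 150 in all tfap2b libraries; at equal depth these numbers were 663 and 304.

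The tfap2b group itself mostly stood below the control for these genes. The control mean was above both singles for 194 of the 270, between them for 73 and below both for 3. Over all genes tested these shares were 47.6%, 14.8% and 37.6%. The tfap2b mean was within 2-fold of the control for 137 genes, at least 2-fold below it for 108 and at least 2-fold above it for 25. The sox10 mean was at least 2-fold below the control for 237, within 2-fold for 33 and at least 2-fold above for 0. Set side by side, the median log2 fold change of the 270 genes against the control was -3.77 in sox10 and -0.71 in tfap2b, against -0.31 and -0.18 over all genes tested; both comparisons share the control libraries with each other and their own libraries with the choice of genes. The double mean was nearer to tfap2b than to sox10 for 228 of the 270 (84.4%), beside 69.4% over all genes tested. The control (90.4%, beside 62.0%), sox3 (89.6%, beside 60.8%) and msx1 (88.5%, beside 63.3%) were nearer to tfap2b more often still. Nearness to tfap2b in these genes is thus not particular to the double group. Compared with the control in the same fit, the double group was called lower for 101 of the 270 (37.4%; 20.2% of all genes tested were called lower) and higher for 14 (17.1% of all genes were called higher). This contrast does not use the levels of the single groups, but its spread comes from all 16 libraries, as did that behind the choice of the 270, so these shares are a description.

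**Figure D3:**
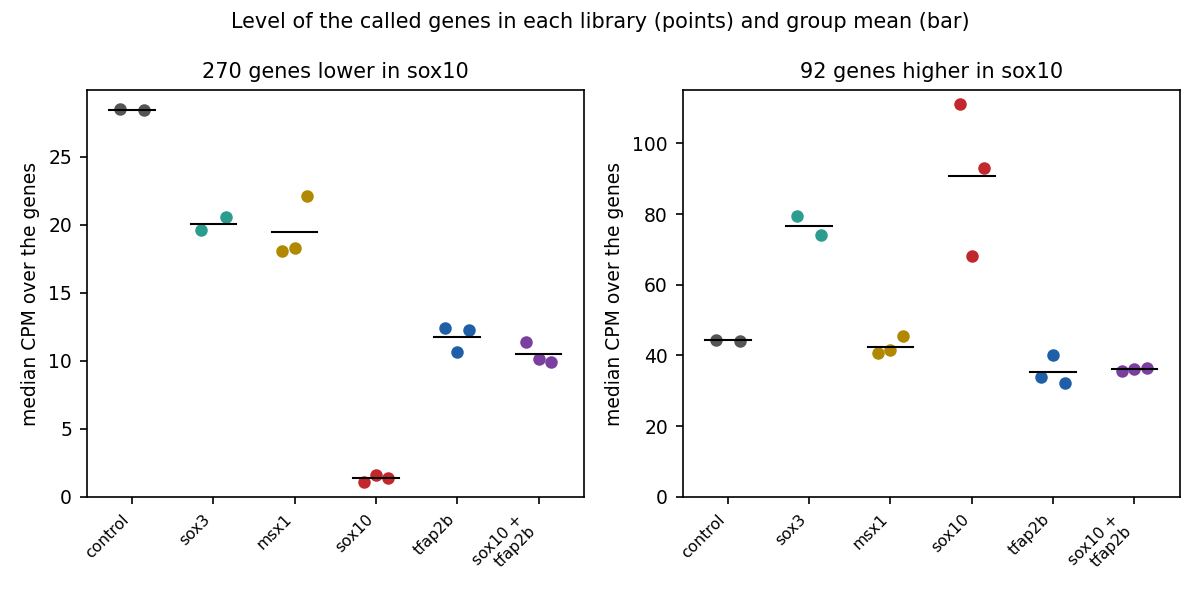
Median CPM over the 270 genes lower in sox10 (left) and the 92 genes higher in sox10 (right) in each of the 16 libraries (points), with the group mean (bar), both axes from 0. On the left the sox10 libraries lie between 1.10 and 1.62 CPM and every other library at 9.96 CPM or more; on the right the sox10 libraries lie at 68.0 CPM or more, the sox3 libraries at 74.1 and 79.4 and the remaining libraries at 32.1 to 45.5.

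Lower genes with a mean of at least 5 CPM in either group and no overlap between their libraries were ranked by fitted fold change. The first 2 showed different patterns in the other groups. ENSGALG00000042411 (chromosome 4, 21917221 to 21932142, minus strand, 4 exons) had 0 counts in all 3 sox10 libraries and 10.8, 7.17 and 3.44 CPM in the tfap2b libraries. By the pooled counts of each group, and against a floor of 3 counts over the sox10 group, it was at least 60.5-fold lower there. In the control it was at 0.0920 and 0.0771 CPM, in msx1 at 1.85 to 2.25 CPM and in the double libraries at 0, 1.71 and 6.10 CPM. The transcript was thus near 0 in the control and sox10 alike, and its highest levels were in tfap2b and 1 double library. The fitted log2 difference was -9.67 (SE 1.95; adjusted p = 0.0226), which depends on the prior count.

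ENSGALG00000040504 (chromosome 15, 8402897 to 8419021, plus strand, 12 exons) also had 0 counts in all 3 sox10 libraries, and 10.7, 1.60 and 2.95 CPM in tfap2b. It was at 9.38 and 7.14 CPM in the control, 7.58 and 7.27 in sox3, 8.41 to 10.5 in msx1 and 2.60 to 7.52 in the double group. Only the sox10 libraries had no count of it (adjusted p = 0.00608 against tfap2b). By pooled counts and the same floor it was at least 46.7-fold below tfap2b, where replicate 1 held 176 of the 223 counts. The call was lost in 4 of 20 alternatives, among them the fit of the 6 libraries (adjusted p over all alternatives 2.74e-06 to 0.319). That of ENSGALG00000042411 was lost in 5 of 20, also without tfap2b replicate 1 (4.24e-05 to 0.232).

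Among the 24 lower genes with at least 50 CPM in both groups and no overlap, the first by fold change was a 6-exon gene on chromosome 2 (26674819 to 26685279, plus strand). It was at 56.2, 114 and 95.7 CPM in sox10 and 279, 336 and 564 CPM in tfap2b (log2 difference -2.15, SE 0.43, adjusted p = 0.0181). The control, at 523 and 421 CPM, lay within the range of tfap2b, and the sox3 libraries, at 776 and 653 CPM, were the highest of all. The double libraries, at 75.6, 71.3 and 24.2 CPM, overlapped sox10 or lay below it, and the msx1 libraries, at 94.2, 139 and 257 CPM, lay between the singles or overlapped sox10. Next came a 4-exon gene on chromosome 1 (51089596 to 51098755, plus strand), at 103, 69.4 and 37.1 CPM in sox10 and 264, 246 and 323 CPM in tfap2b (log2 difference -1.99, SE 0.49, adjusted p = 0.0436). It was at 418 and 359 CPM in the control and 46.6, 91.4 and 150 CPM in the double group, so that the double libraries again overlapped sox10 and not tfap2b. In msx1 it was at 78.0, 91.2 and 301 CPM and in sox3 at 363 and 370 CPM. Both abundant genes therefore differ from the median of the 270, in which the double group lay with tfap2b. The chromosome 2 gene was no longer called in 6 of 20 alternatives, one being the fit without tfap2b replicate 3 (adjusted p over all alternatives 6.27e-05 to 0.211). The chromosome 1 gene was no longer called in 11 of 20, among them the fits without sox10 replicate 2 or 3 and without tfap2b replicate 1 or 3 (0.000475 to 0.231).

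**Figure D4:**
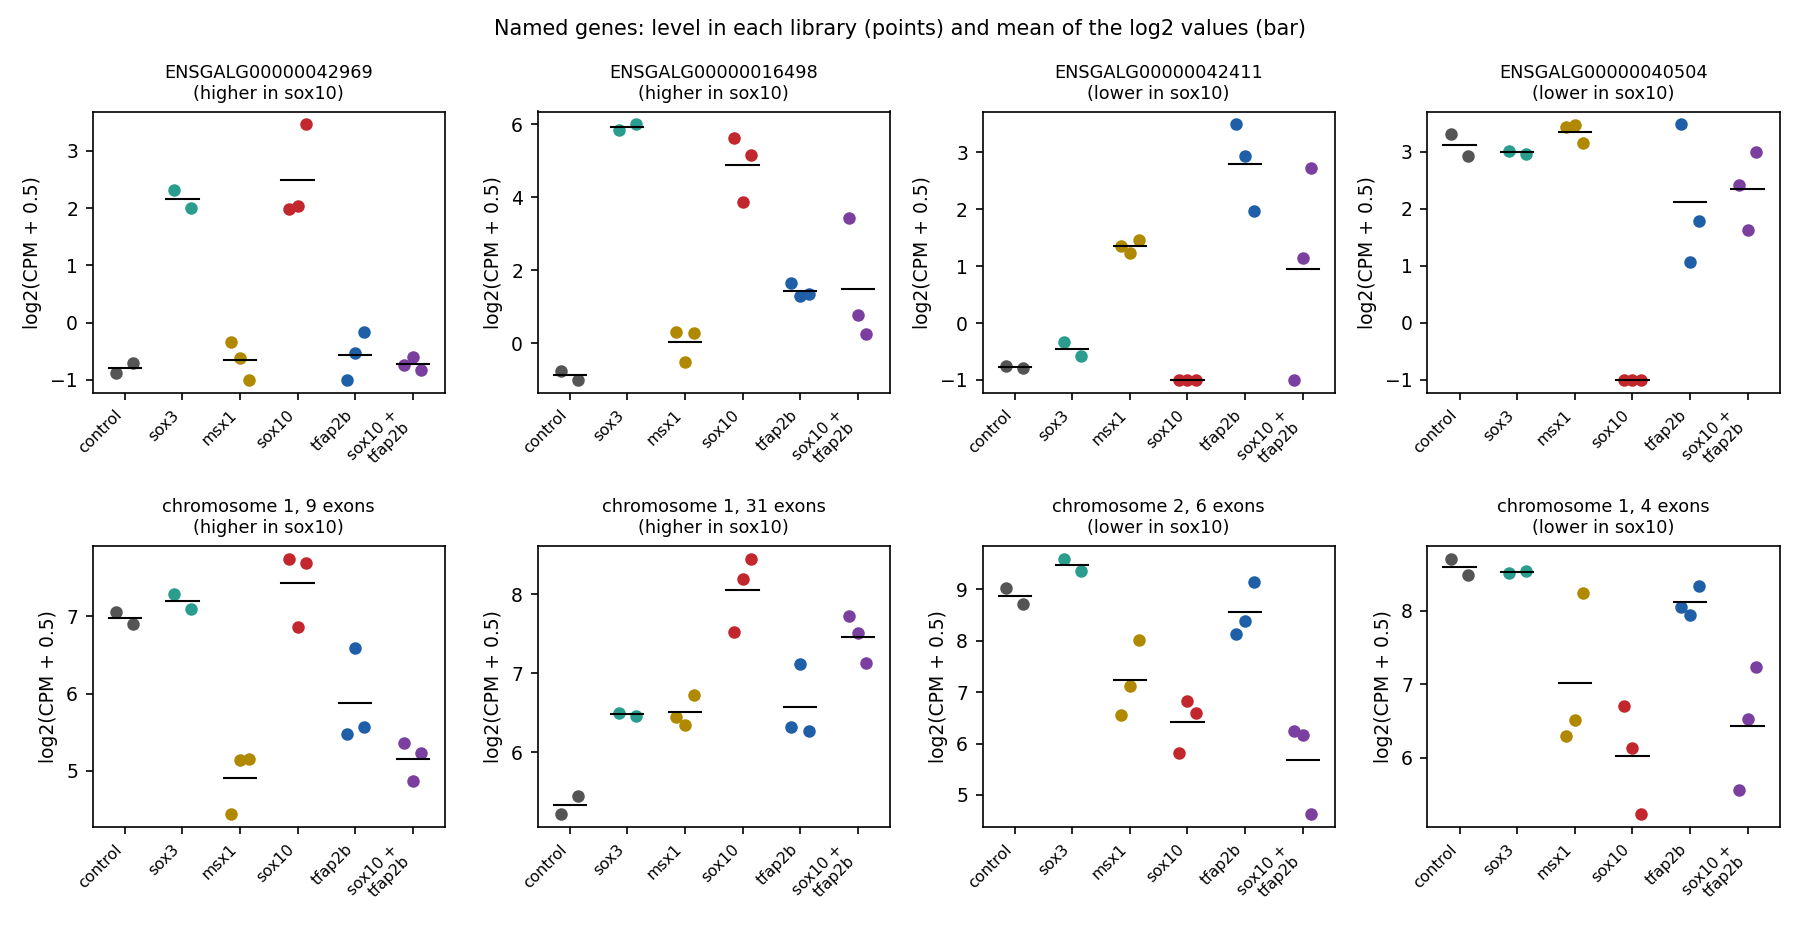
Level of the 8 genes chosen by rule in each library (points), as log2 of CPM plus 0.5, with the mean of these log values per group (bar); the upper row shows the first 2 higher and first 2 lower genes with at least 5 CPM in either group and the lower row 4 with at least 50 CPM in both groups. Points at -1 had 0 counts, as all 3 sox10 libraries had for both genes at the upper right; sox10 and tfap2b points do not overlap in any panel.

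The 8 genes that were still called with the close pairs summed, are described because they were noticed once the values were known. All are lower in sox10. A 12-exon gene on chromosome 13 (12919261 to 12927487) was at 177, 162 and 149 CPM in sox10 and at 545, 337 and 468 CPM in tfap2b. The libraries of the remaining groups held 354 to 633 CPM, so that the sox10 libraries were the lowest of all (log2 difference -1.47, SE 0.17, adjusted p = 0.00167). A 2-exon gene on chromosome 3 (61930601 to 61938188) was at 32.0, 32.3 and 12.2 CPM in sox10, 174, 122 and 179 in tfap2b, 255 and 228 in the control and 52.2 to 78.7 in the double group. An 8-exon gene on chromosome 1 (122045082 to 122076797) was at 49.8, 30.7 and 40.7 CPM in sox10 and 266, 254 and 207 in tfap2b, but the double group (26.0 to 76.4) and msx1 (30.7 to 40.1) overlapped sox10.

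In 5 of the 8 genes the sox10 libraries were at 1.44 CPM or less. A 19-exon gene on chromosome 21 (5503613 to 5512548) was at 0.137, 1.44 and 0.257 CPM in sox10, 18.9, 6.61 and 24.7 in tfap2b and 27.7 to 33.9 in the double group. The control held 61.9 and 75.6 CPM of it, sox3 44.9 and 47.4 and msx1 64.8 to 94.5, so that tfap2b too lay below the control. A single-exon gene on chromosome 12 (4372953 to 4374377) had 0.137, 0 and 0 CPM in sox10, and 8.66, 16.3 and 2.75 in tfap2b. In the double group it was at 8.54 to 14.3 CPM, in the control at 6.16 and 6.06. The control held its highest levels of the other 3, on chromosomes 1, 4 and 24: at 33.2 and 36.9, 153 and 199, and 83.4 and 73.0 CPM. Their tfap2b libraries, at 6.04 to 22.5, 7.46 to 35.9 and 2.55 to 12.2 CPM, lay under these, and sox10, at 0.959 CPM or less, lower still. Over the 8 genes the adjusted p with the close pairs summed was 0.0266 to 0.0352.

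As a set, the 92 genes higher in the sox10 group were more abundant and had counts in every group. Their median level was 111, 68.0 and 92.9 CPM in sox10 replicates 1 to 3 and 33.8, 40.1 and 32.1 CPM in tfap2b replicates 1 to 3. It was 44.4 and 44.1 CPM in the control, 40.6 to 45.5 in msx1 and 35.7 to 36.4 in the double group. The sox3 libraries, at 79.4 and 74.1 CPM, lay within the range of the sox10 libraries. The sox10 mean was at least 2-fold above the control for 53 of the 92, within 2-fold for 27 and at least 2-fold below for 12. For tfap2b these numbers were 35, 28 and 29. The control mean was below both singles for 50 genes, above both for 24 and between them for 18. Over all genes tested these shares were 37.6%, 47.6% and 14.8%. Some of the 92 stood above the control in sox10, and some below it in tfap2b. The sox10 and tfap2b levels chose these genes, so their levels and these counts are given as a description.

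In the double group 78 of the 92 were nearer to tfap2b than to sox10 (84.8%, beside 69.4% over all genes tested). The control was nearer to tfap2b for 63.0% of the 92 (beside 62.0%), sox3 for 48.9% (beside 60.8%) and msx1 for 68.5% (beside 63.3%). The double mean exceeded both singles in 0 of the 92, beside 35.6% over all genes tested. Since the 92 were chosen as high in sox10, a low share was favoured by the choice. Against the control, sox3 was called higher for 16 of the 92 (17.4%), where 0.575% of all genes tested were called higher in that comparison, and lower for 0 (beside 0.071%). The msx1 group was called higher for 11 (12.0%, beside 1.07%) and lower for 11 (beside 1.76%). The double group was called higher for 38 (41.3%, beside 17.1%) and lower for 28 (30.4%, beside 20.2%). These 3 contrasts share the control libraries and, with the choice of the 92, the spread estimated from all 16 libraries, so the shares are a description.

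The first 2 rises in sox10 relative to tfap2b by the same rule were of genes that the sox3 libraries also held. ENSGALG00000042969 (chromosome 4, 34805018 to 34811416, plus strand, 3 exons) was at 3.44, 3.60 and 10.5 CPM in sox10 and at 0, 0.189 and 0.393 CPM in tfap2b (log2 difference 4.94, SE 1.23, adjusted p = 0.0445). It was at 4.46 and 3.52 CPM in sox3 and at 0.294 CPM or less in all control, msx1 and double libraries. ENSGALG00000016498 (chromosome 3, 104544323 to 104575302, plus strand, 14 exons) was at 48.9, 14.1 and 35.2 CPM in sox10 and 2.67, 1.98 and 2.07 CPM in tfap2b (log2 difference 3.86, SE 0.86, adjusted p = 0.0320). The sox3 libraries held 57.5 and 63.8 CPM of it, the double libraries 10.3, 1.22 and 0.707, and the control 0.0920 and 0. ENSGALG00000042969 was no longer called in 10 of 19 alternatives, including the fits without sox10 replicate 3 or tfap2b replicate 1 or 3 (adjusted p over all alternatives 0.000304 to 0.433). The other lost it in 7 of 20, 2 of them the fits without tfap2b replicate 1 or 3 (3.25e-08 to 0.211).

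A set of 4 genes was chosen for a mean of at least 1000 CPM in sox10 and under 1 CPM in the control. Of these, 1 lay on chromosome 1 (194562710 to 194576539) and 3 within 12156905 to 12164434 on chromosome 14. Their levels in sox10 and the control, and the gap from sox10 to tfap2b given next, are thus a description. Like the first 2 rises, these genes were also high in sox3. Their summed level was 17709, 10127 and 13640 CPM of the library total in sox10 and 2515, 5671 and 4095 CPM in tfap2b, and these groups did not overlap. The sox3 libraries held 16248 and 10316 CPM, the double libraries 3557, 66.8 and 109, msx1 8.04 to 872 and the control 1.96 and 2.80. Of the 4, 0 were called between sox10 and tfap2b, at log2 differences of 1.69 to 2.20 with SE 1.59 to 1.76 (edgeR, adjusted p 0.507 to 0.614; unadjusted p 0.227 to 0.340). DESeq2 on the 6 libraries called all 4 (adjusted p 9.87e-05 to 0.00381), and DESeq2 on all 16 called 0. In the double group the library with the most of them, replicate 1, also held the most of ENSGALG00000016498. Without them in totals and tests, 94 genes were higher and 271 lower. That fit takes out only the counts of these 4 genes, and their part in the higher genes was not tested. The chromosome 1 gene and the first of the chromosome 14 genes share exon positions with another gene, and their counts are uncertain.

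Among the 38 higher genes with at least 50 CPM in both groups and no overlap, the first was a 9-exon gene on chromosome 1 (78318610 to 78343166, plus strand), at 215, 116 and 206 CPM in sox10 and 43.8, 95.7 and 47.0 CPM in tfap2b (log2 difference 1.53, SE 0.32, adjusted p = 0.0217). The control held 132 and 119 CPM, sox3 156 and 137, the double group 28.8 to 40.6 and msx1 21.2 to 35.1. The tfap2b, double and msx1 libraries thus lay below the control, and the sox3 libraries and 2 of 3 sox10 libraries above it. The next, a 31-exon gene on chromosome 1 (22901214 to 23034777, minus strand), was at 184, 292 and 350 CPM in sox10 and 79.3, 139 and 76.7 CPM in tfap2b (log2 difference 1.49, SE 0.27, adjusted p = 0.0108). Here the control was lowest, at 36.7 and 43.0 CPM, and the double libraries, at 140 to 211 CPM, overlapped sox10. The sox3 libraries, at 89.8 and 87.7 CPM, and the msx1 libraries, at 81.1 to 106 CPM, lay within the range of tfap2b. In the fit of the 6 libraries neither kept its call, nor without tfap2b replicate 1. The first was also lost without tfap2b replicate 3 (7 of 20 alternatives in all, against 5 for the second; adjusted p over all alternatives 0.000337 to 0.352 and 3.10e-05 to 0.305).

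Where the called genes lay was described by location and structure, beside 1.92% lower and 0.653% higher over all genes tested. In 5 equal bins by genomic span, lower genes were 1.31% of the bin with the shortest spans (up to 3573 bp) and 1.14% of the next. They were 2.88% of the bin with the widest spans (from 40186 bp). Single-exon genes, with spans of at most 7302 bp, were lower in 2.65%. On chromosomes 1 to 5, 150 of 6300 genes were lower (2.38%) and 37 higher. On microchromosomes 11 to 33, 68 of 4776 were lower (1.42%) and 36 higher. These orders by span and chromosome class were reversed in 2 fits with few lower genes. They were limma-voom with quality weights (7 lower genes) and the fit with close pairs summed (8). The other fits that called genes kept both orders between the shortest and widest spans and between these chromosome classes. They reuse the same libraries, so this is not independent support. By level in the control, 0.816% of the lowest of 5 bins (up to 1.57 CPM) were lower, and 1.88% to 2.63% of the other bins. Higher genes were 0.106% of the lowest bin and 1.17% of the highest. The differences between these groups of genes were not tested.

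**Figure D5:**
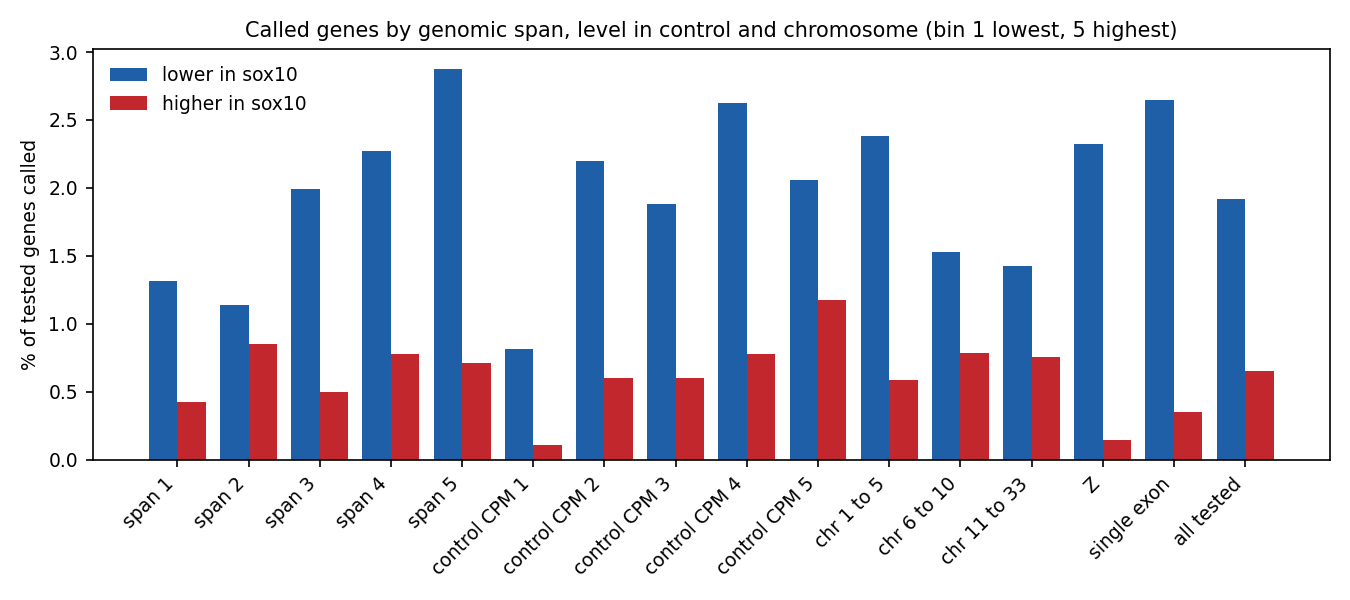
Percent of tested genes called lower (blue) and higher (red) in sox10, by genomic span and by mean CPM in the control (5 equal bins each, 1 lowest, 5 highest), chromosome class and for single-exon genes, with all tested genes at the right; bars start at 0. Lower genes are 1.31% of the bin with the shortest spans, 1.14% of the next, 2.88% of the widest and 1.92% of all genes.

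On the Z chromosome 16 of 689 genes were lower in sox10 (2.32%, beside 1.92% of all genes tested) and 1 higher (0.145%, beside 0.653%). The median log2 difference of the Z genes was -0.11. These differences from the shares over all genes were not tested. On W, which in birds only females carry, counts summed to 210, 169 and 161 CPM of the library total in sox10 and to 154, 87.3 and 74.1 CPM in tfap2b. The sox10 and tfap2b groups did not overlap, and the control held 364 and 382 CPM. The sum was 171 and 162 CPM in sox3, 212 to 302 in the double group and 842, 843 and 229 in msx1. The msx1 libraries thus differed more among themselves than sox10 did from tfap2b. Of the 23 W genes tested, 1 was lower and 0 higher, and their median log2 difference was 1.27. The labels used here give no embryo sex or number per library, and the part of W in other results was not tested.

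The positions of called genes along the chromosomes were also compared, with no test. None of the 92 higher genes stood next to another higher gene along a chromosome, and 17 of the 270 lower genes (6.30%) had a lower gene beside them, in 7 pairs and 1 run of 3. Over all genes tested 1.92% were lower and 0.653% higher, and a gene can have a neighbour on either side. How many such neighbours these shares alone would give was not worked out, so no clustering is read from the counts. That run lies on chromosome 2 (26317033 to 26756149) and holds the abundant 6-exon gene described above. The first gene of the run (30 exons) was at 1.37, 2.76 and 2.70 CPM in sox10, 12.5, 5.76 and 10.3 in tfap2b, 12.9 to 34.4 in the double group and 152 and 141 in the control (log2 difference -2.06, SE 0.49, adjusted p = 0.0385). Both single groups thus lay far below the control, sox10 lowest. The sox3 libraries, at 29.6 and 47.5 CPM, and the msx1 libraries, at 134, 102 and 43.6 CPM, also lay below the control. Another gene of the run (9 exons), whose span encloses the 6-exon gene, differed less: 68.2, 59.7 and 38.7 CPM in sox10, 104, 102 and 97.8 in tfap2b and 80.1 and 98.9 in the control (log2 difference -0.86, SE 0.22, adjusted p = 0.0484). The run was singled out after its values were seen.

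Most of the transcriptome did not part the 2 targetings at this precision, which is not the same as being alike. Of the 13719 genes not called, 3607 had a 95% interval of the difference within 2-fold either way. At the other end 1668 had an estimated difference of 4-fold or more without passing the threshold. The half-width of the interval was 1.10 on the log2 scale for the median gene, and 0.49 for the 3527 genes with at least 50 CPM in both groups. In the fit of the 6 libraries alone the median half-width was 1.20, and 2273 of 11168 genes had an interval within 2-fold.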

How the data were processed

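One deposited table gave raw counts of reads for each gene and library, in whole numbers, beside the exons' positions and summed length. The tools named in the submitters' processing notes are STAR (2.4.2a), featureCounts of Subread (1.4.5) and DESeq2, and the build is galGal5. Annotation release and strand setting: not given in the sources used here. Genes sharing exon positions with another are therefore uncertain. Per the labels' protocols, libraries were made with SMART-Seq v4 and Nextera XT and sequenced as paired 40 bp reads, without molecular identifiers, so floors and counting intervals cover counting error only.

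From these counts, edgeR 4.0.16 (limma 3.58.1, R 4.3.3) fitted all 16 libraries by group, after filterByExpr and TMM scaling, with robust quasi-likelihood estimation. The contrast was sox10 minus tfap2b, and p-values were adjusted over all 14081 genes kept. Standard errors are the log2 difference divided by the square root of F. CPM are TMM-scaled unless called CPM of the library total; 2-fold counts against the control use means plus 0.5 CPM. Named genes were, per direction, the first 2 by fold change among called genes with a mean of at least 5 CPM in sox10 or tfap2b and no overlap between their libraries, and likewise among those with at least 50 CPM in both. Where a group had 0 counts, folds are bounds against 3 counts over the group, from pooled counts and TMM-scaled library sizes. Members, gene groups and rules were chosen with earlier results of these data known. Alternatives were RLE and no composition scaling, filters, depth, DESeq2 1.42.0, limma-voom, other sets of libraries and each replicate left out. Replicates of the sox10 group and of the tfap2b group differed far beyond sampling noise (chi-square per gene at least 26.3 between libraries of either group). This value was not computed for the other groups.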

Additional observations from a re-analysis of the deposited data

How the results depend on the processing

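The 362 calls (92 higher, 270 lower in sox10) stayed within 1.5 times with RLE size factors, without the abundant set, with the stricter filter and after thinning to equal depth. Library totals alone gave 60 higher and 407 lower, and no filter 58 higher. Fits of the 6 or of the 9 libraries of sox10, tfap2b and the double group gave 0 in either direction. Called, higher and lower genes were 1288, 552 and 736 by DESeq2, 181, 59 and 122 by DESeq2 on the 6 libraries, and 34, 27 and 7 by limma-voom with quality weights. They were 96, 10 and 86 against a 1.5-fold change, and 8, 0 and 8 with close pairs summed. Leaving out 1 sox10 or tfap2b library gave 112 to 1304 called, 17 to 679 higher and 95 to 667 lower. The fits of 9 libraries, with close pairs summed and by DESeq2 on 6 were chosen after seeing the data. Every one of the 8 named genes kept its direction in all alternatives in which it was tested. They were chosen for no overlap between the sox10 and tfap2b libraries, so this was nearly set by the choice. Why the counts moved was not tested. Fits of fewer libraries also leave fewer degrees of freedom, and the part of this in the counts was not tested either.

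With the replicate block, 159 genes were called (35 higher, 124 lower). Libraries with the same number did not deviate together between the groups (correlations 0.01, -0.09 and -0.07), so the numbers were not taken as pairs. Depth limits low genes: 1 group floor of 3 counts is 0.128 CPM in sox10 and 0.0805 CPM in tfap2b.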
